A study of Mus musculus with 4 samples.

Results

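The arrays of mouse embryonic stem cells that express constitutively active Akt, a kinase, 1 with leukemia inhibitory factor (LIF) and 1 without it, were set against each other. These are 2 of the 4 Affymetrix arrays of the series, chosen by their labels, and all 12422 probe sets other than array controls entered the comparison. All 4 arrays measured total RNA of E14tg2a, a mouse embryonic stem cell line grown without a feeder layer. The control cells were taken once in medium with 3000 U/ml LIF and once after 4 days in medium lacking it, and the cells with active Akt (called Akt cells) were sampled likewise. The titles write the Akt cells as Akt12. These facts were not given in the sources used here, namely if that names a single clone, which form of Akt was introduced and if the controls carry an empty vector. With 1 array per group, no difference below has a replicate check and none was tested.

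LIF binds a receptor made of LIFR and the shared subunit gp130, and the JAK kinases attached to that receptor activate the transcription factor STAT3. In mouse embryonic stem cells STAT3 sustains genes of the naive state, such as Klf4 and Tfcp2l1, and induces its own feedback inhibitor Socs3. Akt is the main effector kinase of phosphoinositide 3-kinase, which LIF also activates, and it acts on FOXO transcription factors, on GSK3 and on the mTOR pathway that promotes protein and lipid synthesis. Cells that leave the naive state pass through a formative epiblast state before they take up lineage programmes.

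The 2 Akt arrays were close in mean intensity and less close in the 3' to 5' signal ratios. As deposited, their 2% trimmed mean intensities were 81.7 with LIF and 80.3 without, against 121 and 97.4 on the control arrays. After quantile normalization, 5625 genes with LIF and 5659 without lay above the floor of 15.8, the normalized intensity at the 40th percentile, below which values were not read. The actin 3' to 5' signal ratio, which depends on RNA integrity and labelling, was 3.04 with LIF and 2.48 without, and the Gapdh ratio was 3.05 and 2.46. The part of these ratios in the differences below was not tested. All 8 defining stem cell markers were above the floor on all 4 arrays, and their summed intensity was 10928.9 in Akt cells with LIF and 7164.8 without, against 10317.8 and 4008.8 in control cells. Of 8 defining fibroblast markers, 3 were above the floor on each Akt array, with sums of 282.1 with LIF and 284.8 without. Those sums were 248.6 and 567.4 in control cells, so the fibroblast sum differed with LIF on the control arrays and hardly on the Akt arrays. Of 8 blood and endothelial markers, 1 was above the floor on each Akt array. In a bulk sample, fewer cells of a type and less RNA per cell cannot be told apart.

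Most genes differed little between the Akt arrays. Of 8251 genes, 5945 exceeded the floor on 1 or both of them, and 4666 of them (78.5%) lay within 1.5-fold. The 5th and 95th percentiles of the log2 difference, without LIF minus with LIF, were -0.87 and 0.83. At least 2-fold apart were 396 genes (6.66%), of which 179 (3.01%) were higher without LIF and 217 (3.65%) lower. Only 12 genes were at least 4-fold higher, while 31 were at least 4-fold lower. Scaling to the hybridization controls in place of quantile normalization moved the median of all genes to -0.16, and higher genes as a share of those 2-fold apart went from 45.2% to 24.6%. The balance of higher and lower genes therefore depended on the scaling. The share of genes 2-fold apart was 7.72% among genes of mean intensity up to 47.4, 8.16% from there to 102.2, 4.87% up to 239.9 and 3.60% above that, where 38 genes were lower and 10 higher.

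**Figure D1:**
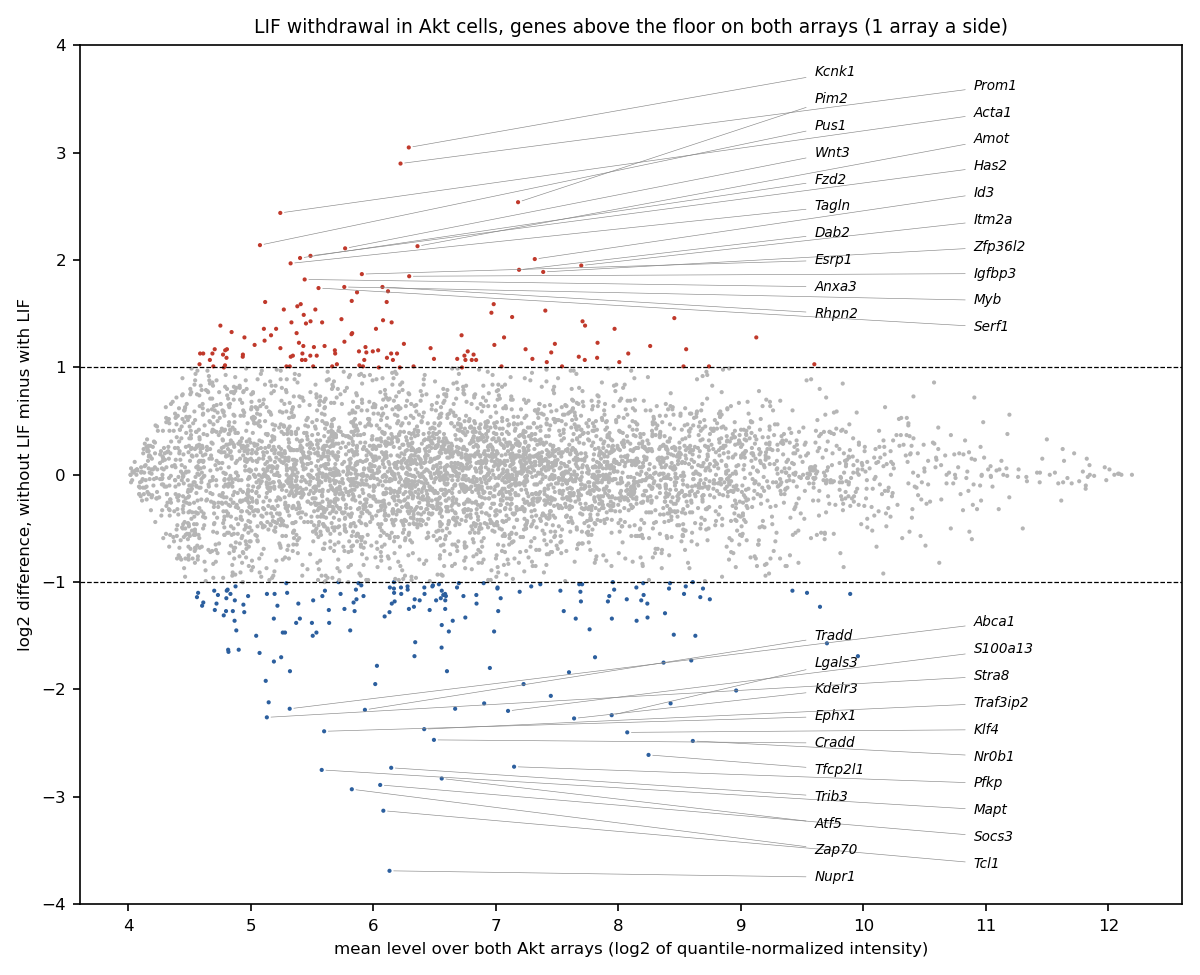
Log2 difference in Akt cells, without LIF minus with LIF (vertical axis), against the mean log2 intensity over both Akt arrays (horizontal axis), for genes above the floor on both. Each point is 1 gene, points past the dashed 2-fold lines are red (higher without LIF) or blue (lower), and the 20 furthest genes each way are named, from Kcnk1 at 3.05 to Nupr1 at -3.69.

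The receptor and kinase genes of the LIF pathway differed less than its feedback inhibitor. Of 22 genes for LIF receptors, JAK kinases, STAT factors and their regulators above the floor, 4 were at least 2-fold lower without LIF. None of the 22 was higher, so 18.2% were apart, against 6.66% of all genes. The median log2 difference was -0.19 against 0.01 over all genes. Lifr, the LIF receptor subunit, had a normalized intensity of 137.1 in Akt cells with LIF and 64.8 without, and of 122.3 and 29.0 in control cells. Lifr was thus 2.11-fold lower in Akt cells, and a pair of its other probe sets was above the floor only with LIF, at 24.6 and 17.9. Il6st, the gene of gp130, had a log2 difference of -0.46, and Jak1, its associated kinase, of 0.11. Stat3 gave -0.45 by the probe set that stands for the gene, at 145.5 with LIF and 106.2 without, and -1.52 by its other probe set. Stat4 and Stat6, which other cytokines activate, were 2.12-fold and 2.14-fold lower at intensities of 57.4 and below.

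Socs3, the STAT3-induced inhibitor of the receptor complex, was the pathway gene furthest down. Its intensity was 181.4 with LIF and 24.4 without in Akt cells, and 262.2 and 50.7 in control cells. The Akt array without LIF was the lowest of the 4, with Socs3 7.42-fold lower than with LIF. A second Socs3 probe set went from 67.3 to below the floor, which is at least 4.26-fold lower. Socs2, a related inhibitor, stood at 540.7 with LIF and 442.1 without in Akt cells, but at 571.5 and 196.4 in control cells.

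Among 23 genes known as targets of LIF and STAT3, 7 were at least 2-fold lower in Akt cells without LIF and 2 higher. That is 39.1%, against 6.66% of all genes, and the median was -0.45. Bcl3, an atypical I-kappa-B protein, had intensities of 127.8 with LIF and 5.2 without, and of 136.5 and 41.9 in control cells. It was above the floor on every array except that of Akt cells without LIF, and at least 8.1-fold lower there than with LIF. Icam1, a cell adhesion molecule, went from 216.3 to 47.8, which is 4.53-fold lower, beside 73.7 and 50.2 in control cells. Only the Akt array with LIF was high for Icam1. Klf5, a Kruppel-like factor of the naive state, stood at 1000.9 with LIF and 248.4 without in Akt cells, but at 554.4 and 618.4 in control cells. Pim3, a serine/threonine kinase, was 2.06-fold lower. The 2 target genes that were higher were Gadd45g, a growth arrest gene (2.74-fold), and Ly6e, a surface protein (2.05-fold). Pim1, Junb and Cebpd lay between -0.47 and -0.22, and Myc, the growth-promoting transcription factor, was at 42.9 with LIF and 81.4 without.

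The sequence bound by STAT dimers was looked for in RefSeq promoters (assembly GRCm38.p6), from 250 bases before to 50 after each gene's start. The letters searched were TTCNNNGAA, which read the same on both strands. They were found in 3 of 18 LIF-STAT3 target promoters (16.7%) and in 8.51% of 6572 promoters of genes on the array. Socs3 and Icam1 held it, as did Zfp36, an mRNA decay factor with a log2 difference of 0.42. The parts before the start of the first pair are shown because those genes were far lower without LIF, with the match in capitals. They lie at chr11:117969472-117969560 on the minus strand for Socs3 and chr9:21015858-21015939 on the plus strand for Icam1, each read 5′ to 3′ on the strand of the gene.
Socs3: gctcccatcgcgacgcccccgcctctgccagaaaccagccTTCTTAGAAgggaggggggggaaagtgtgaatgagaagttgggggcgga
Icam1: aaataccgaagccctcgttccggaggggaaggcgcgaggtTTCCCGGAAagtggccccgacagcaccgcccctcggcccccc
A match describes these letters only, and binding was not measured.

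Genes of the naive and general pluripotent state leaned lower in Akt cells without LIF. Below 0 were 26 of 34, beside 2901 of all 5945 genes. Of the 34, 13 were at least 2-fold lower (38.2%, against 3.65% of all genes), none was 2-fold higher, and the median was -0.56. In control cells 23 of 34 were at least 2-fold lower with a median of -1.60, and 10 genes were 2-fold lower in both lines. Over all 5984 genes above the floor in control cells, 13.8% were 2-fold apart, 7.39% higher and 6.40% lower. Tcl1, a coactivator of Akt that stem cells express, had intensities of 200.3 with LIF and 22.9 without in Akt cells and of 103.3 and 17.1 in control cells. Tfcp2l1, a naive-state transcription factor downstream of STAT3, went from 750.0 to 123.0 in Akt cells, beside 312.0 and 86.4 in control cells. Its second probe set differed by -0.79 on the log2 scale. Klf4 went from 619.6 to 117.0, beside 568.2 and 86.4. Both lines were low without LIF for these 3 genes.

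Nr0b1, an orphan nuclear receptor of the naive state, split the lines further. Its intensity was 922.9 with LIF and 165.0 without in Akt cells, and 329.4 and 6.6, below the floor, in control cells. Klf2, another naive Kruppel-like factor, was at 170.6 and 68.0 in Akt cells and at 73.5 and 4.2 in control cells. Fbxo15, an F-box gene of undifferentiated cells, was at 704.0 and 212.5, beside 651.0 and 33.2. Tbx3 was 3.55-fold lower in Akt cells, Nr5a2 2.24-fold and the germ cell gene Dppa3 2.15-fold. Mybl2, a cell cycle transcription factor on this list, was 2.15-fold lower, with its other probe set at -0.31.

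Of the core factors, Pou5f1 and Sox2 differed less in Akt cells than the naive factors named above, while Nanog, 2.16-fold lower, was close to Nr5a2. Nanog was at 1398.2 with LIF and 646.5 without in Akt cells and at 1318.5 and 696.5 in control cells, and its 2 probe sets gave log2 differences of -1.11 and -0.67 in Akt cells. Sox2 was at 2329.7 and 1537.6 in Akt cells and at 2238.8 and 471.9 in control cells. Pou5f1, the gene of Oct4, was at 612.5 and 452.1, beside 491.4 and 263.8. Utf1, a chromatin factor of undifferentiated cells, was at 463.9 with LIF and 722.9 without in Akt cells, but at 741.0 and 136.5 in control cells. Nodal, a TGF-beta family ligand of the epiblast, had a log2 difference of 0.71 in Akt cells. Esrrb was below the floor on all 4 arrays. Whether the lines differ in these responses was not tested.

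**Figure D2:**
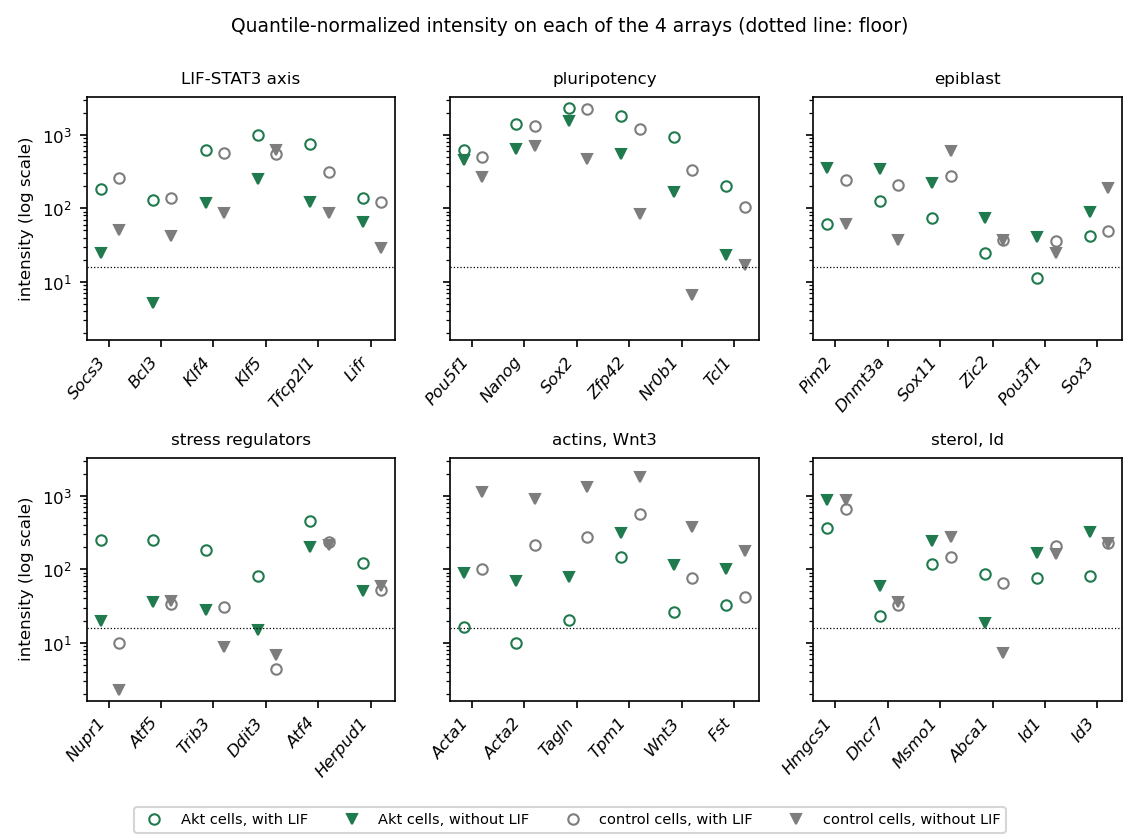
Normalized intensity (log axis) of 36 genes in 6 groups on each of the 4 arrays. Open circles are with LIF and filled triangles without, green for Akt cells and grey for control cells, with 1 array each, and the dotted line is the floor at 15.8. Socs3 is low without LIF in both lines, Nupr1 and Atf5 are high only in Akt cells with LIF, and Pim2 and Dnmt3a differ in opposite directions in the lines.

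Genes of the formative epiblast leaned higher in Akt cells without LIF, with 13 of 17 above 0, beside 3032 of 5945 over all genes. Of the 17, 7 passed 2-fold upward and 1 downward, which is 47.1% against 6.66% of all genes. The median was 0.71, the furthest above 0 of the 30 lists, where the control median was 0.15. Pim2, a serine/threonine kinase, was at 60.2 with LIF and 350.0 without in Akt cells, but at 240.8 and 60.4 in control cells. Dnmt3a, a de novo DNA methyltransferase, was at 127.4 and 343.1, beside 206.3 and 36.6. Akt cells without LIF were the highest of the 4 arrays for both genes by these probe sets. A second Pim2 probe set was below the floor on both Akt arrays. It exceeded the floor only in control cells with LIF, at 31.7. Sox11, a SOX transcription factor, was at 72.8 and 219.7 in Akt cells and at 276.2 and 601.4 in control cells, and its probe sets gave 3.02-fold and 4.14-fold higher. Sox3 was 2.1-fold higher, and 2.53-fold by another probe set.

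Pou3f1, the Oct6 gene, was above the floor only without LIF in Akt cells, at 40.7, which is at least 2.58-fold higher. Cdh2, the N-cadherin gene, was at least 2.22-fold higher, at 35 without LIF against 273.6 in control cells without LIF. Zic2 was 3.02-fold higher by 1 probe set, while the other was above the floor only with LIF, at 21.3. Epha2, an ephrin receptor, was the member that was lower, by 2.08-fold. Cdh1, the E-cadherin gene, differed by 0.08, and Fgf5 was below the floor on all 4 arrays.

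Primitive streak and mesoderm genes past 2-fold were mostly higher. Of 20 above the floor, 6 passed upward (Wnt3, Has2, Fst, Lmo2, Tagln and Acta2) and 2 downward (Bmp4 and Pdgfra), and the median was 0.42. Wnt3, the ligand that initiates the streak, was at 26.2 with LIF and 113.6 without in Akt cells and at 75.1 and 376.4 in control cells. Without LIF it was more than 4-fold higher in each line, and in each medium the Akt value was below the control value. Has2, a hyaluronan synthase, was at 22.1 and 91.0, the latter the highest of the 4 arrays. Fst, the activin antagonist follistatin, was 3.08-fold higher and Lmo2, a blood transcription cofactor, 2.57-fold. Pdgfra, a growth factor receptor, was 2-fold lower, with another probe set at -0.42 in log2. Eomes was below the floor with LIF and at 18.9 without. Another 14 genes of the list were below the floor on both Akt arrays, among them Gsc, Evx1, Mesp1, Lhx1 and Tal1. The mesoderm factors Tbx6, Twist1 and Hand1 lay between 0.42 and 0.60 in log2. Tbx6 and Twist1 exceeded the floor only without LIF, at 21.1 and 23.9. Mesp2 (-0.73), Cdx1 (-0.72) and Snai1 (-0.68) of the same list went the other way, with Cdx1 above the floor only with LIF. Of the 20 genes, 14 lay above 0 and 6 below, where 3032 of 5945 lay above 0 over all genes.

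Muscle and smooth muscle actin genes, targets of serum response factor, included several that were higher in Akt cells from a low start. Of 21, 6 passed 2-fold upward and 1 downward (33.3%, against 6.66% of all genes), and the median was 0.55 against 1.29 in control cells. Acta1, skeletal muscle actin, was at 16.2 with LIF and 88.2 without, beside 99.7 and 1113.8 in control cells. Tagln, a calponin family protein, was at 20.2 and 79.5, beside 272.9 and 1318.5. Acta2, smooth muscle actin, was below the floor with LIF and at 69.0 without, at least 4.38-fold higher, beside 210.6 and 903.5. For each of these 3 genes the Akt cells without LIF stayed below the control cells with LIF. Tpm1 and Fhl1 were each 2.1-fold higher, with another Fhl1 probe set at 0.51 in log2. Csrp2, a LIM protein of the same list, was 2.09-fold lower.

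Genes of the trophoblast and simple epithelium list leaned higher, and neural genes past 2-fold were mostly lower. The shares 2-fold apart were 23.5% of trophoblast, 13.6% of endoderm and 28.6% of neural genes, against 6.66% of all genes, on lists of 14 to 22 members. Of 17 trophoblast and simple epithelium genes, 3 were higher and 1 lower, with a median of 0.43. Above 0 lay 15, some barely, such as Cdh3 at 0.01, beside 3032 of 5945 over all genes. The higher genes were Igfbp3, a growth factor binding protein (3.6-fold), Krt18, a keratin of simple epithelia (2.46-fold), and Sfn, the epithelial 14-3-3 protein (2.01-fold). Plet1 was 2.95-fold lower, and Tfap2c had a log2 difference of -0.34. Cdx2, Elf5, Gata3, Tfap2a and Tpbpa were below the floor on both Akt arrays. Of the 22 endoderm genes, 2 were higher and 1 lower, with a median of 0.09, which was -0.10 with hybridization control scaling. Dab2, an endocytic adaptor of the endoderm, was at 75.4 and 282.6 in Akt cells and at 39.6 and 218.3 in control cells, while its other probe sets gave 0.71 and 0.50 in Akt cells. Apoe, a lipid carrier, was at 1436.1 with LIF and 483.8 without, beside 452.8 and 735.5. The endoderm regulators Gata4, Gata6 and Sox17 had log2 differences of -0.31, -0.67 and -0.40 in Akt cells. Cited1 (1.01), Lrp2 (0.79) and the regulator Hhex (0.66) went the other way. Of the whole endoderm list, 13 genes lay above 0 and 9 below. Of 14 neural genes, 1 was higher, the growth cone gene Gap43 (2.91-fold), and 3 were lower. Mapt, the tau gene, was 6.73-fold lower with another probe set at -0.14, Ncam1 2.83-fold lower with another at 0.18, and Stmn2 2.17-fold lower with another at 3.16-fold. Sox1 was at 17.9 without LIF and below the floor with it.

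**Figure D3:**
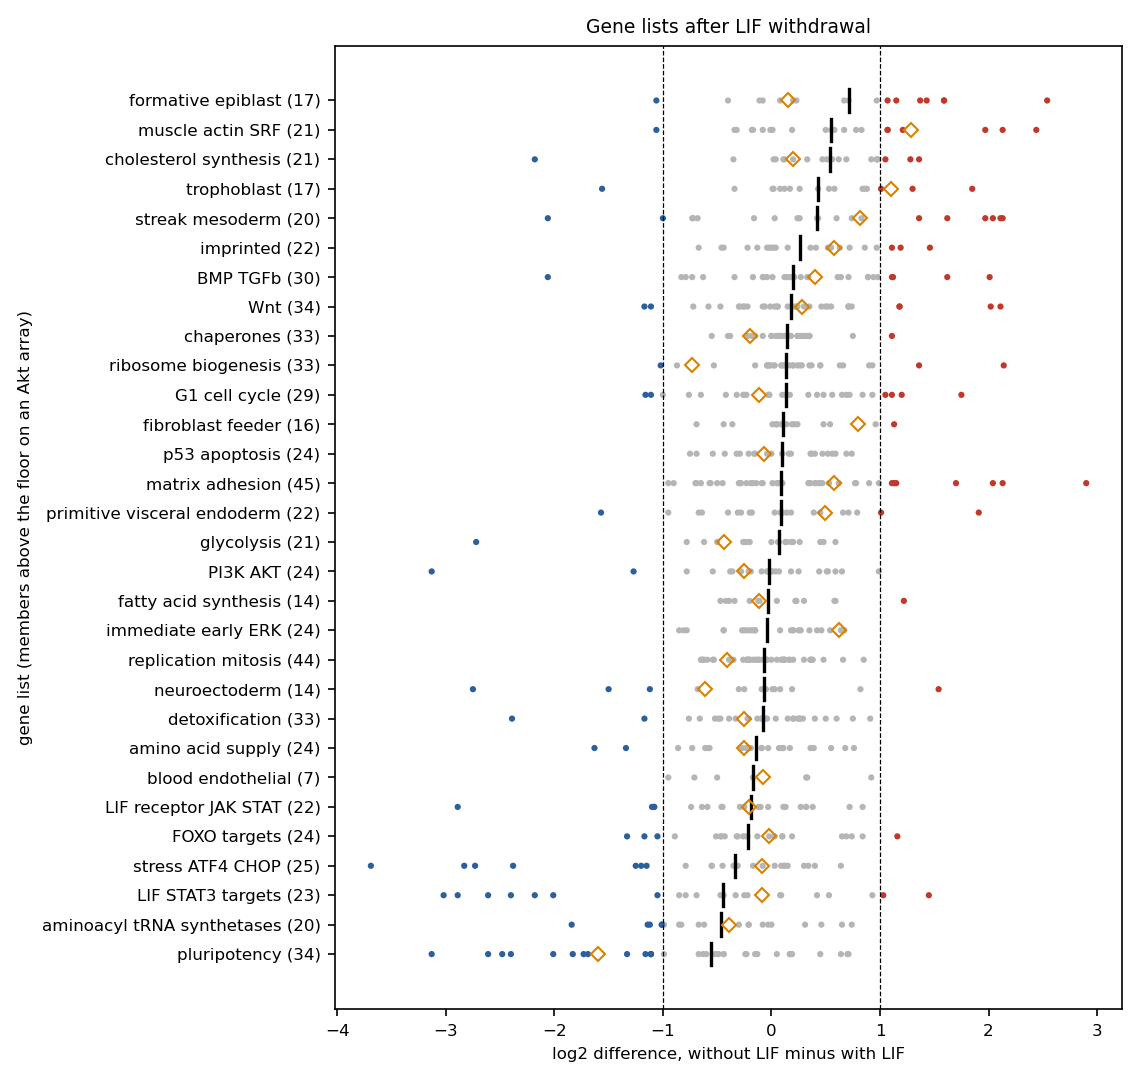
Log2 difference in Akt cells, without LIF minus with LIF, for the members of each of the 30 gene lists that were above the floor on an Akt array (dots, red or blue past 2-fold; number in brackets), with their median as a black bar and the median in control cells as an open diamond. The medians in Akt cells run from 0.71 for formative epiblast to -0.56 for pluripotency.

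In the BMP and TGF-beta pathway the ligand Bmp4 was lower, and Id1 and Id3 were higher. Bmp4 was at 357.0 with LIF and 85.5 without in Akt cells and at 242.6 and 536.6 in control cells. Both of its probe sets were lower in Akt cells, by 4.18-fold and 3.34-fold. The Id genes are immediate targets of BMP signalling and block helix-loop-helix factors. Id3 was at 79.6 and 319.8, beside 226.9 and 224.6 in control cells, and Id1 at 76.5 and 166.5, beside 206.6 and 160.6. Akt cells with LIF were therefore the low array for Id1 and Id3. Id2 and Id4 did not pass 2-fold, with log2 differences of 0.89 and 0.21. Of 30 genes of the pathway, 4 were higher and 1 lower (16.7%, against 6.66% of all genes), with a median of 0.20. The higher genes were Id3, Fst, Id1 and the SMAD corepressor Skil, the last above the floor only without LIF. The inhibitory Smad genes Smad6 and Smad7 had differences of -0.08 and -0.34.

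Of 34 Wnt pathway genes, 4 passed 2-fold upward and 2 downward (17.6%, against 6.66% of all genes), and the median was 0.18. Beside Wnt3, the receptor gene Fzd2 was at 21.0 and 85.1 in Akt cells and at 58.1 and 151.8 in control cells. Wnt8a was above the floor only without LIF in Akt cells, at 35.6, and Sfrp2, a secreted Wnt antagonist, was 2.26-fold higher. Csnk1e, a casein kinase that acts on Dishevelled, was 2.26-fold lower and Tle5, a Groucho family corepressor, 2.15-fold lower. Ctnnb1, the beta-catenin gene, was at 1684.5 and 1596.4.

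Akt signalling genes themselves differed little after LIF withdrawal. Of 24 genes of the phosphoinositide 3-kinase pathway, none was 2-fold higher, and the median was -0.02. The 2 that were lower make 8.33%, near the 6.66% of all genes 2-fold apart. These were Tcl1 and Inpp5d, the SHIP1 lipid phosphatase, which was at 201.3 with LIF and 83.6 without, with another probe set at 0.40. Akt1 was at 71.0 and 71.6, and this does not check the label, since the introduced form could escape that probe set. Eif4ebp1, a translation repressor that mTOR inactivates, had a difference of -0.78.

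FOXO factors are excluded from the nucleus by Akt. Both arrays compared come from cells with active Akt, and any part of Akt in these values was not tested. Of 24 FOXO target genes, 15 lay below 0, beside 2901 of 5945 over all genes. Past 2-fold were 3 downward and 1 upward (16.7%, against 6.66% of all genes), and the median was -0.22. The lower genes were Klf2, Sod2, the mitochondrial superoxide dismutase (437.6 and 194.1), and Txnip, a thioredoxin inhibitor, at 123.0 and 59.3. A second Txnip probe set had the opposite sign, at 31.6 and 47.5. Gadd45b, a stress gene, was 2.23-fold higher, with another probe set at 0.44 in log2. Foxo3 differed by -0.09, Cdkn1a by 0.10 and Ccng2 by -0.31. The FOXO letters TGTTTAC, on either strand, were in 3 of 22 of these promoters (13.6%), those of Txnip, Sesn1 and Bcl2l11, and in 3.29% of promoters on the array.

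Several genes of the stress response driven by ATF4 and CHOP were high in Akt cells with LIF and low without. Of 25, 7 passed 2-fold downward and none upward (28.0% apart, against 6.66% of all genes), and the median was -0.34. Nupr1, a small chromatin protein induced by stress, was at 252.2 with LIF and 19.5 without in Akt cells, and below the floor in control cells at 9.9 and 2.3. At 12.9-fold lower it was the gene furthest down of all. Atf5, an ATF4-related factor, was at 251.6 and 35.3, beside 33.9 and 36.8. Trib3, a pseudokinase that binds Akt, was at 182.3 and 27.5, beside 30.3 and 8.8. Ddit3, the CHOP gene, was at 82.0 with LIF and below the floor on the other 3 arrays, at least 5.2-fold lower without LIF. For all of these the Akt array with LIF stood alone, and the other 3 arrays were low.

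Atf4 itself was at 458.0 with LIF and 198.7 without, beside 232.3 and 216.6 in control cells. Herpud1, an endoplasmic reticulum degradation gene, was at 120.6 and 50.8, beside 52.4 and 58.2, and Atf6 was 2.22-fold lower. The chaperones of the endoplasmic reticulum did not share this pattern: Hspa5, the BiP gene, had a difference of 0.34, Hsp90b1 of 0.09 and Pdia4 of 0.64.

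Aminoacyl-tRNA synthetase genes, which charge tRNAs and of which several are ATF4 targets, leaned the same way as the stress genes. Of 20, 5 passed 2-fold downward and none upward, where 6.66% of all genes were 2-fold apart. Below 0 lay 15, beside 2901 of 5945 over all genes. The list median was -0.46, beside -0.39 in control cells. Cars, for cysteine, was at 366.2 with LIF and 102.4 without, beside 80.0 and 76.9 in control cells. Mars1, for methionine, was at 603.5 and 274.6, beside 282.6 and 219.8. Nars, for asparagine, was at 418.1 and 207.6, beside 160.3 and 153.4, and Sars and Aars were 2.17-fold and 2.02-fold lower. In each of the 5 the Akt array with LIF was the highest of the 4. Vars, for valine, went the other way at 151.5 and 237.4. Among 24 genes of amino acid synthesis and import, 2 were at least 2-fold lower, Aldh18a1 of proline synthesis (3.09-fold) and Psph of serine synthesis (2.54-fold), and none higher. That is 8.33%, near the 6.66% of all genes. Asns, asparagine synthetase, was at 1235.0 and 679.5, and the median was -0.14.

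The letters TGATGNAA, found in composite sites of C/EBP and ATF factors, were searched on both strands of the same promoters. They were in 5 of 13 synthetase promoters (38.5%), in 4 of 23 stress gene promoters (17.4%) and in 3 of 20 amino acid supply promoters (15%), and in 3% of promoters on the array. The synthetases were Aars, Gars, Iars, Tars and Yars, of which Aars was 2-fold lower and the others had differences from -0.99 to -0.62. The stress genes were Nupr1, Trib3, Herpud1 and Atf3, the last with a difference of -0.17. The supply genes were Asns, Slc1a4 and Slc7a7, with differences of -0.86, 0.10 and 0.76, none 2-fold apart. The stretches before the start of 4 genes are shown because they hold the same 8 letters, in capitals, and were picked after their values were seen. Nupr1, Herpud1 and Aars were at least 2-fold lower and Tars had a difference of -0.83, while Atf3 and Slc7a7 hold the same letters on one strand or the other and are not shown. They lie at chr7:126625533-126625620 on the minus strand for Nupr1, chr8:94386277-94386364 on the plus strand for Herpud1, chr8:111033690-111033777 on the plus strand for Aars and chr15:11399659-11399713 on the minus strand for Tars, each read 5′ to 3′ on the strand of the gene.
Nupr1: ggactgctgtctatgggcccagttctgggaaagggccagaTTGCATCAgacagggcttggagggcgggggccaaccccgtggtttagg
Herpud1: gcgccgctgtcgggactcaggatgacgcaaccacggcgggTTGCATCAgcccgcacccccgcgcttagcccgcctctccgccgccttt
Aars: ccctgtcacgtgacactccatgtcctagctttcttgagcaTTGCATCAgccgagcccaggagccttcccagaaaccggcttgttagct
Tars: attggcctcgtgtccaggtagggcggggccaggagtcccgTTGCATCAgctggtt
Factor binding was not measured in these cells.

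Cholesterol synthesis genes leaned higher in Akt cells without LIF, most by less than 2-fold. Of 21 genes of synthesis and transport, 19 lay above 0, beside 3032 of 5945 over all genes. Of the 21, 3 were at least 2-fold higher and 1 lower, where 6.66% of all genes were 2-fold apart. The list median was 0.54, beside 0.20 in control cells. Hmgcs1, HMG-CoA synthase, was at 358.2 with LIF and 871.9 without, beside 662.1 and 883.0. Dhcr7, the last enzyme of the pathway, was at 23.1 and 59.0, beside 32.7 and 36.0, and Msmo1, a sterol oxidase, was 2.07-fold higher. Idi1, Cyp51 and Sqle had log2 differences of 0.98, 0.97 and 0.92, and Hsd17b7, below the floor with LIF and at 31.0 without, was at least 1.96-fold higher. Akt cells with LIF were the lowest array for these 4 enzymes of the pathway as well. Abca1, which exports cholesterol, was the member that was lower, at 85.0 and 18.7 in Akt cells and at 64.5 and 7.3 in control cells. The sterol element letters TCACNCCAC were in 1 of 16 promoters of the list (6.25%) and in 1.64% on the array. The promoter that held them was that of Hmgcs1, at chr13:119690174-119690262 on the plus strand for Hmgcs1, shown with the match in capitals because it is the list member with the match.
Hmgcs1: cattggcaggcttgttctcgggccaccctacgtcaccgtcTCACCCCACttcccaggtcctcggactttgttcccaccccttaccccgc

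Fatty acid and glucose metabolism showed fewer differences, with 7.14% and 4.76% of the lists 2-fold apart, near the 6.66% of all genes. Of 14 fatty acid synthesis genes, 1 was 2-fold higher, the acyl-CoA ligase Acsl4 (2.33-fold), and none lower, with Fasn at 0.59, Acly at -0.47 and a median of -0.03. Of 21 glycolysis genes, none was higher and 1 lower, with a median of 0.07, or -0.09 with hybridization control scaling. That gene was Pfkp, the platelet phosphofructokinase, at 364.9 with LIF and 55.2 without in Akt cells and at 161.4 and 23.9 in control cells. Both Pfkp probe sets were lower in Akt cells, by 6.6-fold and 4.15-fold.

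A few growth genes of the G1 phase were higher, while replication genes stayed within 2-fold. Myb, a transcription factor of proliferating cells, was at 29.6 with LIF and 99.6 without in Akt cells and at 51.0 and 6.2 in control cells. Mycn was at 202.1 and 465.0, beside 858.4 and 227.3, and Ccne1, cyclin E1, at 178.9 and 370.4, beside 424.0 and 185.1. In these 3 genes the direction in control cells was the opposite one. Mycl was 2.16-fold higher, and Rb1, the retinoblastoma protein that restrains G1 exit, was 2.24-fold lower with another probe set at -0.87. Of 29 G1 genes, 4 were higher and 2 lower (20.7% apart, against 6.66% of all genes). The median of the 29 was 0.13, or 0.00 with hybridization control scaling. None of 44 replication and mitosis genes was 2-fold apart, with a range of -0.65 to 0.85 and a median of -0.07, beside -0.41 in control cells.

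Of 33 ribosome biogenesis genes, 2 were higher and 1 lower in Akt cells (9.09% apart, near the 6.66% of all genes). The median of the 33 was 0.13, or -0.03 with hybridization control scaling, beside -0.73 in control cells. Pus1, a pseudouridine synthase, was at 16.1 with LIF and 70.5 without, and Utp14a, a processome component, at 156.4 and 401.6. Ubtf, an RNA polymerase I factor, was 2.03-fold lower.

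The list of adhesion and matrix genes held several of the genes furthest up and no 2-fold lower member. Icam1, Ncam1 and Col13a1, which are outside this list, were 4.53-fold, 2.83-fold and 3.15-fold lower. Of the 45 listed, 7 were at least 2-fold higher (15.6% apart, against 6.66% of all genes). The list median was 0.09, or -0.11 with hybridization control scaling. Prom1, the membrane glycoprotein prominin, was at 27.3 with LIF and 204.1 without in Akt cells and at 94.7 and 154.9 in control cells, and its probe sets gave 7.47-fold and 7.23-fold. Amot, angiomotin, a junction protein of the Hippo pathway, was at 39.3 and 171.8, beside 119.9 and 702.7. The tight junction genes Cldn6 and Cldn7 were 2.19-fold and at least 3.24-fold higher, and Itga3, a laminin receptor, was 2.16-fold higher. Collagen and laminin genes of the basement membrane stayed within 2-fold, from Lama1 at -0.95 to Col18a1 at 0.99. The broader list of 16 fibroblast and feeder genes had 1 member 2-fold higher, the protease inhibitor Timp3 (2.19-fold), and none lower. Its share apart of 6.25% was near the 6.66% of all genes. The median of the 16 was 0.11, or -0.02 with hybridization control scaling.

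Other genes at the ends of the ranking belonged to none of the lists described above. Kcnk1, a potassium channel with tandem pores, was highest in the ranking, at 27.2 with LIF and 224.9 without, beside 322.6 and 436.8 in control cells. Only the Akt array with LIF was low for Kcnk1. Esrp1, an epithelial splicing regulator, gave the same pattern at 31.3 and 114.9, beside 138.2 and 115.3. Zfp36l2, an mRNA decay factor, was at 87.0 and 321.9, and Itm2a, a membrane protein, at 105.5 and 408.4. Rhpn2, Serf1 and Anxa3 were 3.36-fold, 3.33-fold and 3.53-fold higher. Zap70, a tyrosine kinase best known from T cells, was at 156.6 and 20.5, beside 43.0 and 5.2. Cradd and Tradd, adaptors of death receptor signalling, were 5.54-fold and 4.56-fold lower, and Traf3ip2, an adaptor of interleukin-17 signalling, 5.18-fold lower. Lgals3, galectin-3, was at 536.0 and 113.4 in Akt cells but at 156.6 and 380.1 in control cells, and Kdelr3, a retrieval receptor of the endoplasmic reticulum, at 437.0 and 90.9 but at 58.4 and 132.9. Stra8, a meiotic entry gene, was at 76.7 with LIF and 16 without, just above the floor, and below it in control cells. Ephx1, an epoxide hydrolase, was at 110.7 and 21.2 and likewise below the floor in control cells.

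Genes above the floor on 1 of the 2 Akt arrays give only bounds. There were 286 above it only with LIF, of which 32 were at least 2-fold lower, and 320 only without, of which 39 were at least 2-fold higher. Alox15, a lipoxygenase, gave the largest bound upward, at 122.5 without LIF and at least 7.76-fold higher, beside 41.5 and 209.4 in control cells. After Bcl3, the largest bounds downward were those of the aspartic protease Napsa (at least 5.65-fold), Ddit3, the glycosyltransferase B3gnt2 (at least 4.87-fold) and the small GTPase Mras (at least 4.79-fold). A second B3gnt2 probe set was at 26.2 and 22.9.

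Repeat probe sets of the same gene were the only repeat measurement within an array. Over probe sets in place of genes, 505 of 7918 (6.38%) were at least 2-fold apart. Of 25 higher genes that had another probe set above the floor, 5 had another past 2-fold, 14 had one in the same direction by less, and 6 had none in that direction. Of 41 lower genes, 13, 23 and 5 fell into these classes. Log2 differences of probe sets of 1 gene spread around that gene's mean with an SD of 0.351 over 829 genes. Higher by 2 probe sets were Prom1, Sox11, Sox3, Peg3 and Cilp2, a matrix protein. Lower by 2 were Socs3, Pfkp, Cradd, Bmp4, Mapt, Stmn2, S100a13, a calcium-binding protein (mean -1.29), Glb1, the lysosomal beta-galactosidase (mean -2.21), Laptm5, a lysosomal membrane protein (mean -1.61), Col13a1, a transmembrane collagen (mean -1.47), Lactb2, Stmn3 and Pck2. These probe sets share 1 RNA sample per array and say nothing of the spread between cultures.

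The comparison of the same medium change in control cells uses the other 2 arrays and shares none with that in Akt cells. Of 175 genes higher in Akt cells and above the floor in both lines, 46 were 2-fold higher in control cells too, which is 26.3% of the Akt list and 12.2% of the 376 control genes. Of all 5671 genes above the floor in both lines, 6.63% were 2-fold higher and 6.70% lower in control cells. Another 20 of the 175 (11.4%) were 2-fold lower in control cells, and the median control difference of the 175 was 0.26. Of 206 genes lower in Akt cells, 54 were lower in control cells too (26.2% of the Akt list and 14.2% of the 380 control genes) and 14 (6.80%, near the 6.63% of all genes) were 2-fold higher, with a control median of -0.47. Of the 5027 genes that exceeded the floor on every array, 27 were 2-fold or more apart with opposite signs, 16 higher in Akt cells and 11 lower. Wnt3, Tagln, Acta1, Amot and Dab2 were higher without LIF in both lines, and Tcl1, Socs3, Klf4 and Pfkp lower in both. With 4 arrays the difference between the lines has no residual error and was not tested.

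**Figure D4:**
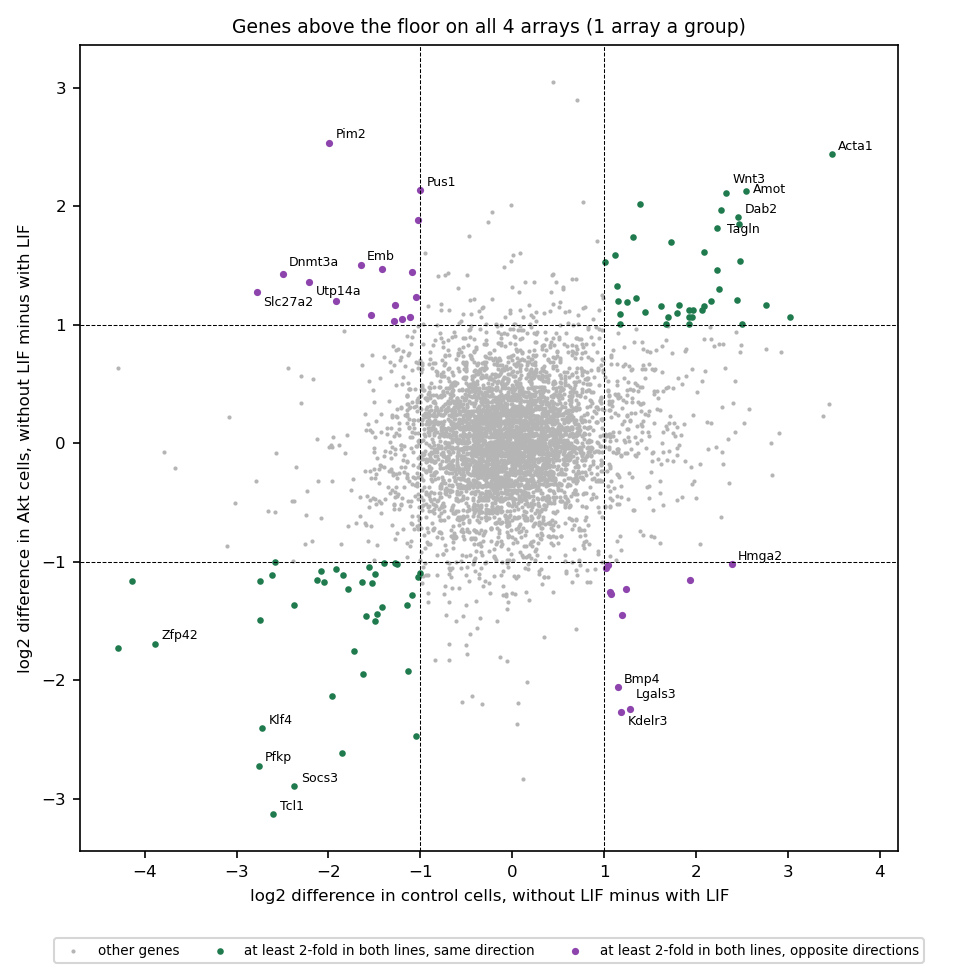
Log2 difference without LIF minus with LIF in Akt cells (vertical axis) against that in control cells (horizontal axis), for 5027 genes above the floor on all 4 arrays, with dashed lines at 2-fold. Green points are at least 2-fold apart in the same direction in both lines and purple points, 27 genes, in opposite directions, with Pim2 furthest in the upper left and Hmga2, Bmp4, Lgals3 and Kdelr3 in the lower right.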

How the data were processed

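The authors deposited 1 table of intensities on a linear scale for 4 Affymetrix arrays, 1 per group, with 12488 probe sets; how they were computed and scaled: not given in the sources used here. Groups came from the array titles. Of the probe sets, 66 were array controls and 12422 were used. They were quantile normalized over the 4 arrays with limma 3.58.1 in R 4.3.3, and values under the 40th percentile (15.8) were raised to that floor before taking log2. Quantile normalization removes any shift common to most genes. Platform annotation gave 10833 probe sets 1 symbol, 396 several and 1193 none; 10817 matched the RefSeq table of GRCm38.p6 by gene identifier. A gene was represented by its probe set of highest mean log2 intensity, giving 8251 genes. "Apart" means a log2 difference of at least 1, over genes exceeding the floor on 1 or both arrays compared; a gene that exceeds it on 1 has only a bound. With 1 array a group and 0 residual degrees of freedom, no test was made, and the number of arrays limits the precision.

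Named genes were the 20 furthest each way above the floor on both Akt arrays, the 8 largest bounds each way, list members at least 2-fold apart (at most 6 each way), a set of fixed members, the 10 furthest apart between the lines among those in opposite directions, and genes past 2-fold by 2 or more probe sets (at most 10 each way). Other list members were named after their values were seen. Members and all 30 gene lists were chosen with earlier results of these data known, so they give no independent support. Fixed members with no probe set of 1 symbol were not analysed here. Alternatives covered the scaling, the floor, the choice of probe set and the filter. Counting steps were checked on simulated data. Tables and plots used Python 3.11.15, pandas 2.3.3 and matplotlib 3.10.9. Promoter sequences came from a RefSeq table of GRCm38.p6; for the probe sets, no build is named in the sources used here.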

Additional observations from a re-analysis of the deposited data

Results flagged for a closer look

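Of the 27 genes at least 2-fold apart on LIF withdrawal in opposite directions in the lines, with every value above the floor, the 14 that the rule for named genes takes by any of its parts are given here; others, such as Litaf (-3.09) and Knop1 (2.90), fall outside it. Each value is the log2 difference in Akt cells after subtracting the one in control cells. With 1 array a group, no difference between lines was tested. Higher in Akt cells and lower in control cells were Pim2 (4.54), the fatty acid importer Slc27a2 (4.06), Dnmt3a (3.92), Utp14a (3.57), the monocarboxylate transporter partner Emb (3.16), Pus1 (3.14), Mycn (3.12), Zfp36l2 (2.90), Gadd45g (2.55) and Ccne1 (2.25). Lower in Akt cells and higher in control cells were Lgals3 (-3.52), Kdelr3 (-3.45), the chromatin protein Hmga2 (-3.41) and Bmp4 (-3.21). Bmp4 kept both directions by its second probe set, at -1.74 in Akt cells and 0.66 in control cells. The second Zfp36l2 probe set, at 0.47 and 0.28, did not go in opposite directions. The other probe sets of Pim2, Dnmt3a, Emb and Mycn were below the floor on both Akt arrays.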

How the results depend on the processing

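The counts moved most with the floor and the scaling. With hybridization control scaling, 112 genes passed 2-fold upward and 343 downward. A floor at the 20th percentile gave 480 higher and 490 lower, a floor at the 60th percentile 69 and 123, and log2(value + 16) with no floor 96 and 119. Higher genes with another probe set past 2-fold numbered 2, 15, 3 and 3 under these 4 settings, and lower genes 21, 23 and 6 under the first 3. Genes higher in both lines numbered 27, 104, 18 and 19, and genes lower in both numbered 105, 34 and 35 under the last 3. All 6 of these counts stayed within 1.5 times with trimmed mean scaling, values as deposited, plain _at probe sets or genes above the floor on both arrays, and so did the 4 computed with the mean of all probe sets, where agreement of probe sets was not computed. The neuroectoderm median was -0.49 with the floor at the 60th percentile. Txnip took the opposite sign, at 0.59, with its plain _at probe set. Of 148 named genes, 16 came under 2-fold with hybridization control scaling, 35 with log2(value + 16) and 27 with the mean of all probe sets, and of 136 measured with the floor at the 60th percentile 42 did. The causes were not tested beyond what these settings change. No paired analysis was possible because each group has 1 array and the labels give no replicate numbers.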

Other observations

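Imprinted genes, which are expressed from 1 parental allele, included 3 of 22 that were at least 2-fold higher in Akt cells without LIF; none was lower. That is 13.6%, against 6.66% of all genes. The median of the 22, at 0.26, was 0.01 with hybridization control scaling. Peg3, a zinc finger gene, was at 212.0 with LIF and 582.6 without, beside 390.1 and 1833.0 in control cells, and its other probe sets gave 1.08 and 0.55 in log2. Ndn, the necdin gene, was at 40.6 and 92.3, and Magel2 was above the floor only without LIF, at 34.1. Igf2, a fetal growth factor, was at 930.1 and 1442.2, beside 254.2 and 988.9.

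Stress and clearance genes outside the ATF4 group differed less. Of 33 chaperone genes, 1 was 2-fold higher, the heat shock gene Hspa1b (2.16-fold), and none lower. Of 33 detoxification genes, Ephx1 and Sod2 were at least 2-fold lower and none was higher. The shares apart on these lists, 3.03% and 6.06%, did not exceed the 6.66% of all genes. The metallothionein gene Mt1 was at 2519.0 with LIF and 2172.1 without in Akt cells, beside 646.5 and 50.9 in control cells. None of 24 p53 and apoptosis genes was 2-fold apart, and Mdm2, the p53 ubiquitin ligase, was at 876.6 and 521.5. None of 24 immediate early genes was 2-fold apart either, with Fos at 330.2 and 183.7 in Akt cells and at 69.0 and 284.9 in control cells.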
